A study of Homo sapiens with 9 samples.

Results

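The genes described here were 10 components of the WNT pathway: the ligands WNT5A and WNT5B, the secreted inhibitors DKK1 and DKK3, the receptors FZD2, FZD7 and LRP6, the transducer CTNNB1, the transcription factor TCF7L2 and the target gene AXIN2. They were taken by symbol from the 60606 genes of the deposited table, in which all 10 were found, and all 10 passed the filter of a mean over 1 TPM that left 22909 genes for testing. The data were RNA-seq libraries of 3 groups of human glioblastoma cells, with 3 libraries per group and 9 in all. U87 was the established glioblastoma line in its wild-type form, grown in DMEM with serum. GSCs were stem cells derived from U87 that had been irradiated repeatedly and were kept in serum-free medium with bFGF and EGF. Diff cells were induced from the irradiated GSCs in serum medium and then grown from selected clonal communities, so they carried the same irradiation history as GSCs and the medium of U87. Against U87, irradiation and culture medium differed together in GSCs, and irradiation and clonal selection differed together in Diff cells, so their parts cannot be told apart. No unirradiated GSCs were used here. The study built the 3 groups as a model of radioresistance, and the comparisons below address how far the WNT pathway differed between the parental line, the stem-like cells and their progeny.

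WNT ligands are secreted proteins that are modified with a lipid in the secretory pathway and bind frizzled receptors on neighbouring cells. In the canonical arm, a frizzled receptor and the co-receptor LRP5 or LRP6 stop the complex of AXIN, APC and GSK3 from marking beta-catenin for destruction, and beta-catenin then acts with TCF/LEF factors on genes such as AXIN2. In the non-canonical arms, ligands such as WNT5A act on cell polarity, migration and calcium, largely without beta-catenin. The pathway has been studied in glioblastoma for its part in self-renewal, invasion and response to radiation, and WNT5A in particular for its part in invasion.

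All libraries came from bulk cells, in which fewer cells expressing a gene and less RNA per cell cannot be told apart. Values are TPM, the number of transcripts of a gene per 1000000 after division by transcript length, so levels can be compared between genes. Differences are log2 fold changes on the log2(TPM + 1) scale from limma, with Benjamini-Hochberg adjusted p-values over all 22909 genes, and this scale understates changes of genes near 1 TPM. A gene is said to have risen or fallen where the adjusted p was under 0.05, and to have passed both limits where the absolute log2 fold change was also over 1. Mitochondrial genes held 25.9% to 31.8% and the noncoding RNA RN7SL1 5.73% to 9.79% of the TPM of a library. The stem cell markers PROM1 and SOX2 were highest in GSCs but low there, at 0.379 to 0.596 and 0.809 to 0.994 TPM. FABP7 ranged from 4.38 to 5.82 TPM in GSCs, 2.53 to 3.27 TPM in Diff cells and 0.546 to 0.986 TPM in U87. Other stem cell markers did not follow these. NES was highest in U87, at 31.1 to 35.5 TPM, and fell in GSCs to 21.7 to 23.3 TPM (adjusted p = 0.00047, limma). OLIG2 and CD44 did not pass the test in GSCs against U87 (adjusted p = 0.225 and 0.41, limma). Nothing in the labels states that the libraries of a group came from separate cultures, and the p-values then measure only the spread between these libraries, which may be technical.

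The promoters of 3 members are printed because their genes represent the main patterns below: DKK1 rose most, WNT5A was the most abundant member in U87, and TCF7L2 is the factor that binds the motif searched. Each is the window of 250 bases before a RefSeq transcription start on GRCh38.p14, 5' to 3' on the strand of the gene. Capitals mark the TCF/LEF core motif CTTTGA or its reverse complement TCAAAG.
DKK1, chr10:52314031-52314280, plus strand: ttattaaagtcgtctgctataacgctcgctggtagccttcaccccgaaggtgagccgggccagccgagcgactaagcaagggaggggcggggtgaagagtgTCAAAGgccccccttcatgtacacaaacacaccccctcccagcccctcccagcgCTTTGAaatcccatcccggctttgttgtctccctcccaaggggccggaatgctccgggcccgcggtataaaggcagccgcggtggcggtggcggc
WNT5A, chr3:55481399-55481648, minus strand: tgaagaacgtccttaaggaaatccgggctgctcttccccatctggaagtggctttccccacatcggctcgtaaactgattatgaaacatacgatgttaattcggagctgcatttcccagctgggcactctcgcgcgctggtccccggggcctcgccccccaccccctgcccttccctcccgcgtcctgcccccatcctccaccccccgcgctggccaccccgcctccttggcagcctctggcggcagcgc
TCF7L2, chr10:112949997-112950246, plus strand: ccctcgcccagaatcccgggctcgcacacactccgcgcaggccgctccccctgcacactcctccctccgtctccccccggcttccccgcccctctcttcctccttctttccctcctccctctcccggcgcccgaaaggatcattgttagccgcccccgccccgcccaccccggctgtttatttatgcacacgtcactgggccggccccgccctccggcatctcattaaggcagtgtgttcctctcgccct
The motif, searched on both strands, was present in 3937 of 35116 windows of that length, or 11.2%. RefSeq windows were at hand for 5 of the 10 members, with 9 start sites, and only the DKK1 window held the motif. It held 2 matches, starting 149 bases before the start site in the antisense and 95 bases before it in the sense orientation. Among the 115 genes of the wider pathway lists, 85 had windows, and 6 of 117 windows held the motif. A match is a description of these letters and was not tested as a binding site.

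Among the 10 genes, 6 passed the test in GSCs against U87, where 48.6% of all tested genes did. Of these 2 rose and 4 fell, beside 25.3% and 23.3% of all tested genes. In Diff cells against U87, 7 passed (39.4% of all tested genes), of which 2 rose and 5 fell (18.9% and 20.5%). Diff cells differed from GSCs in 6 members (34.8%), with 4 higher and 2 lower (15% and 19.8%). Past both limits in GSCs against U87 were WNT5A, WNT5B and LRP6, all lower. That is 0 members higher and 3 lower, beside 9.52% and 7.53% of all tested genes and 17.1% in either direction. When Diff cells were set against U87, DKK1 was higher and WNT5A lower past both limits, beside 5.92% and 6.36% of all tested genes and 12.3% in either direction. When they were set against GSCs, WNT5B and DKK1 were higher and 0 members lower, beside 2.66%, 5.36% and 8.01%. The ranges of the 3 libraries did not overlap for 7, 8 and 7 of the 10 genes, beside 55.8%, 55.2% and 46.7% of all tested genes. The median log2 fold change of the members was -0.21, -0.26 and 0.29, against 0.017, -0.036 and -0.056 over all tested genes. The comparisons of GSCs and of Diff cells with the parental line share its 3 libraries.

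**Figure D1:**
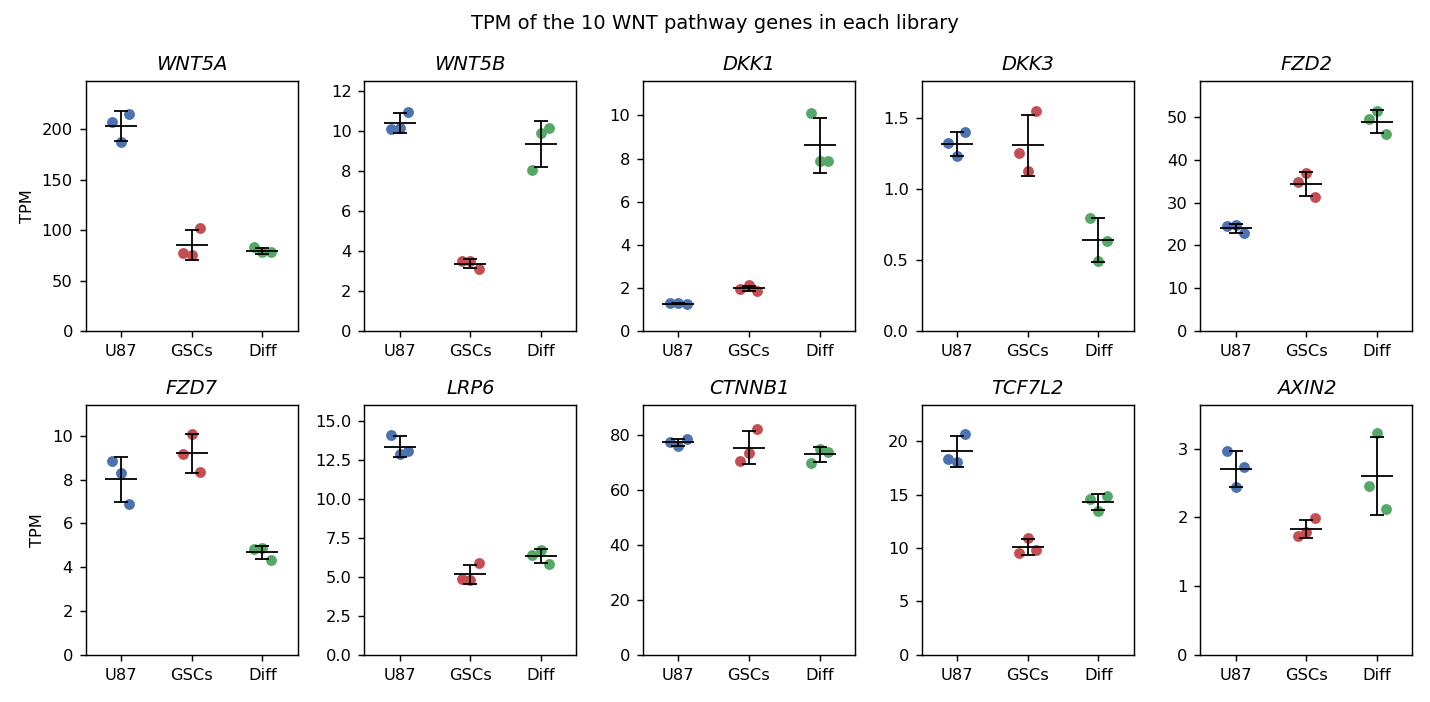
TPM (vertical axes, each from 0) of the 10 WNT genes in U87, GSCs and Diff cells. Points are single libraries, horizontal bars the mean and error bars the SD of 3 libraries. WNT5A and LRP6 were highest in U87, WNT5B was lowest in GSCs and DKK1 was highest in Diff cells. FZD2 stepped up from U87 to GSCs to Diff cells, and CTNNB1 lay between 69.9 and 82.0 TPM throughout.

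WNT5A, a ligand best known for non-canonical signaling, was the most abundant of the 10 genes in every group and lay above 98.3% of tested genes in U87. The gene lies on the minus strand of chromosome 3 (GRCh38, chr3:55465715-55490539, GENCODE 29), and positions of the other members are from the same annotation. Its level was 207, 187 and 215 TPM in U87, 77.7, 75.1 and 102 TPM in GSCs and 83.1, 78.0 and 78.2 TPM in Diff cells. Every U87 library was above every other library, and the ranges of GSCs and Diff cells overlapped. The mean of 203 ± 14.6 TPM (SD, n = 3) in U87 was 2.39-fold that of GSCs and 2.55-fold that of Diff cells. WNT5A fell in GSCs by 1.26 (SE 0.11, adjusted p = 2.3e-05, limma) and in Diff cells by 1.34 on the log2 scale (adjusted p = 2.32e-05, limma). Between Diff cells and GSCs the log2 difference was -0.076, with a 95% interval of -0.33 to 0.18 (adjusted p = 0.641, limma). Without the GSCs library at 102 TPM it was 0.061.

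WNT5B, the close relative of WNT5A, moved differently. It lies on the plus strand of chromosome 12 (chr12:1529891-1647243). U87 libraries had 10.1, 10.1 and 10.96 TPM, GSCs 3.53, 3.49 and 3.10 TPM, and Diff cells 8.03, 9.89 and 10.1 TPM. GSCs were below all other libraries, while the ranges of Diff cells and U87 overlapped. The mean in GSCs of 3.37 ± 0.235 TPM was 3.08-fold lower than the 10.4 ± 0.496 TPM of U87 (log2 fold change -1.38, SE 0.11, adjusted p = 1.06e-05, limma). It was 2.77-fold higher in Diff cells than in GSCs (log2 fold change 1.24, SE 0.11, adjusted p = 5.56e-05, limma). Against U87 the log2 difference of Diff cells was -0.14, with an interval from -0.39 to 0.10 (adjusted p = 0.334, limma).

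Seen against all 19 WNT ligands, WNT5A held 45.3 ± 0.14% of the summed ligand TPM in U87, 26.6 ± 4.39% in GSCs and 27.5 ± 1.34% in Diff cells. WNT7B, a ligand that can act through beta-catenin, held most of the rest, with shares of 49.0%, 66.6% and 63.8%. WNT7B was measured at 201 to 234 TPM in U87 and 200 to 232 TPM in GSCs, with overlapping ranges (log2 fold change -0.050, adjusted p = 0.622, limma). In Diff cells it had 179 to 192 TPM and fell by 0.24 against U87 (adjusted p = 0.032, limma). The sum over the 19 ligands was 449 ± 32.4 TPM in U87, 319 ± 13.3 TPM in GSCs and 290 ± 5.21 TPM in Diff cells. The share of WNT5B was 2.32%, 1.06% and 3.22%. Shares of WNT5A in U87 did not overlap those in either other group, and an exact two-sided permutation test gave p = 0.1, the smallest p that 3 against 3 libraries allow. Of the 19 ligands, 7 had a mean over 1 TPM, and 12 did not.

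DKK1 (chr10:52314296-52318042, plus strand), a secreted inhibitor that binds LRP5 and LRP6 and is itself a known target of beta-catenin, had the widest range of the 10 genes. PRKG1-AS1 runs opposite to 9.61% of its exon bases. Its level was 1.29, 1.30 and 1.25 TPM in U87, 1.96, 2.12 and 1.87 TPM in GSCs and 10.1, 7.87 and 7.88 TPM in Diff cells. The 3 groups were fully separated, in the order U87, GSCs, Diff cells. The mean of 8.62 ± 1.28 TPM in Diff cells was 6.73-fold that of U87 (log2 fold change 2.07, SE 0.13, adjusted p = 3.98e-06, limma) and 4.34-fold that of GSCs (log2 fold change 1.68, adjusted p = 2.58e-05, limma). Its level lay above 9.56% of tested genes in U87 and above 56.4% in Diff cells. Its smaller increase in GSCs against U87 (log2 fold change 0.39, SE 0.13, adjusted p = 0.0329, limma) did not pass the test when any U87 library, or GSCs library 1 or 2, was left out, with adjusted p between 0.0682 and 0.0833, nor in a fit of GSCs and U87 alone (0.0677).

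DKK3 (chr11:11963106-12009769, minus strand) is a divergent member of the DKK family that is often reduced in tumors. Libraries of U87 had 1.32, 1.23 and 1.40 TPM, GSCs 1.25, 1.13 and 1.55 TPM, and Diff cells 0.796, 0.491 and 0.634 TPM. Diff cells lay below all other libraries, while U87 and GSCs overlapped. DKK3 passed the filter of a mean over 1 TPM through U87 and GSCs, the groups where it was higher. The mean of Diff cells was 2.06-fold lower than in U87 and 2.04-fold lower than in GSCs. On the log2(TPM + 1) scale it fell by 0.50 against U87 (SE 0.15, adjusted p = 0.0267, limma) and by 0.49 against GSCs (adjusted p = 0.0324, limma), and with a pseudocount of 0.1 the changes were -0.96 and -0.94. The call against U87 was lost when any U87 library, or Diff library 2 or 3, was left out (adjusted p 0.0531 to 0.0896). The call against GSCs was lost when U87 library 1, GSCs library 1 or 3, or Diff library 2 or 3 was left out (adjusted p 0.0513 to 0.106), in a fit of GSCs and Diff cells alone (0.0594) and without the filter on low values (0.0507). Of the summed TPM of DKK1 to DKK4, DKK1 held 41.2 ± 4.20% in U87, 59.6 ± 4.96% in GSCs and 92.4 ± 1.80% in Diff cells, and DKK3 42.2%, 39.1% and 6.82%.

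FZD2 (chr17:44557459-44559570, plus strand), a frizzled receptor whose coding sequence lies in a single exon, rose in each comparison. Its level was 24.5, 24.6 and 22.8 TPM in U87, 34.8, 36.8 and 31.3 TPM in GSCs and 49.5, 51.2 and 45.9 TPM in Diff cells. The groups did not overlap and stood in the order U87, GSCs, Diff cells. It rose in GSCs by 0.50 on the log2 scale against U87 (SE 0.075, adjusted p = 0.000604, limma) and by 0.997 in Diff cells (SE 0.075, adjusted p = 1.24e-05, limma), just inside the limit of 1, and it was higher by 0.50 in Diff cells against GSCs (adjusted p = 0.00109, limma). The mean in Diff cells of 48.9 ± 2.70 TPM was 2.04-fold that of U87. Of the 50-base words of its transcripts, 2.67% also occur in FZD1, FZD5 or FZD7, so few reads could be shared.

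FZD7 (chr2:202034587-202038445, plus strand), a frizzled receptor close to FZD2 in sequence, changed in the other direction in Diff cells. Its level was 8.85, 8.30 and 6.87 TPM in U87, 9.15, 10.1 and 8.35 TPM in GSCs and 4.84, 4.88 and 4.33 TPM in Diff cells. Diff cells were below all other libraries, and U87 and GSCs overlapped (log2 fold change 0.18, interval -0.082 to 0.45, adjusted p = 0.23, limma). FZD7 fell in Diff cells by 0.66 against U87 (SE 0.12, adjusted p = 0.00194, limma) and by 0.84 against GSCs (adjusted p = 0.000714, limma).

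Among the 10 frizzled receptors, FZD2 held 24.1 ± 0.066% of the summed TPM in U87, 18.3 ± 2.03% in GSCs and 37.3 ± 1.36% in Diff cells. Its share in GSCs was below that in U87 although its level was higher, because the sum over the frizzleds was 99.6 ± 4.46 TPM in U87, 187 ± 6.75 TPM in GSCs and 131 ± 4.20 TPM in Diff cells. FZD8 accounted for most of the added TPM in GSCs. It had 4.62, 6.23 and 3.16 TPM in U87, 70.6, 71.5 and 72.9 TPM in GSCs and 15.3, 13.2 and 13.2 TPM in Diff cells, with no overlap between groups. The log2 fold change of FZD8 was 3.72 in GSCs against U87 (SE 0.17, adjusted p = 5.31e-07, limma) and -2.29 in Diff cells against GSCs (adjusted p = 2.58e-05, limma). FZD7 held 8.02%, 4.92% and 3.57% of the frizzled sum. Each of these shares of FZD2, FZD7 and FZD8 differed between groups without overlap, at the smallest p an exact permutation test of 3 against 3 allows (p = 0.1).

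**Figure D2:**
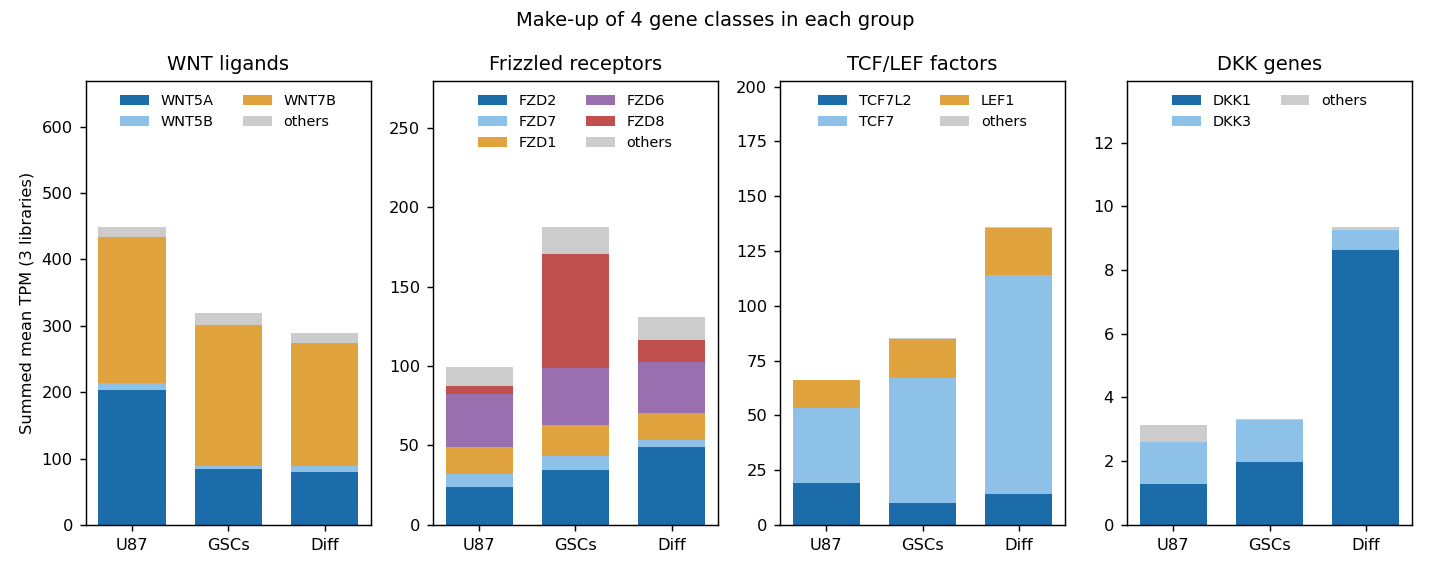
Summed mean TPM (vertical axes, from 0; mean of 3 libraries, no error bars) of 19 WNT ligands, 10 frizzled receptors, 4 TCF/LEF factors and 4 DKK genes in U87, GSCs and Diff cells, stacked by gene. WNT5A and WNT7B made up most of the ligand sum, FZD8 was 38.3% of the frizzled sum in GSCs, TCF7 was 73.4% of the TCF/LEF sum and DKK1 92.4% of the DKK sum in Diff cells.

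LRP6 (chr12:12116025-12267012, minus strand) is the co-receptor that canonical signaling needs beside a frizzled receptor. Its level was 14.1, 12.8 and 13.1 TPM in U87, 4.83, 4.77 and 5.88 TPM in GSCs and 6.41, 6.71 and 5.82 TPM in Diff cells. Every U87 library exceeded every library of the other groups, which overlapped with each other. LRP6 fell by 1.22 in GSCs (SE 0.10, adjusted p = 1.62e-05, limma) and by 0.97 in Diff cells (SE 0.10, adjusted p = 9.36e-05, limma), and the means were 2.58-fold and 2.11-fold lower than the 13.3 ± 0.666 TPM of U87. Between Diff cells and GSCs the log2 difference was 0.25, with an interval from 0.018 to 0.48 (adjusted p = 0.0908, limma), and it passed the test without GSCs library 3 (adjusted p = 0.0226), after quantile normalization (0.0116), after median-ratio scaling (0.034) and after RN7SL1 and mitochondrial genes were left out (0.0455). LRP5, the other co-receptor, was at 0.50, 0.55 and 0.49 TPM on average in U87, GSCs and Diff cells, under the filter, so LRP6 held 90.1% to 96.4% of their sum in the group means.

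The genes next to LRP6 on chromosome 12 were also lower. Of the 12 tested genes on either side, 20 of 24 were below 0 in GSCs and 22 of 24 in Diff cells, each compared with U87, with medians of -0.40 and -0.49. LRP6 fell more than 21 and 19 of its 24 neighbours. WNT5A differed in this respect, since its 24 neighbours had medians of 0.20 and 0.15 and all 24 lay above it in both comparisons. Around DKK1, 19 of 24 neighbours were above 0 in Diff cells against U87, with a median of 0.45, and 4 had a larger increase than DKK1. Around FZD2 the neighbours had a median of -0.0073 in Diff cells against U87. The part of chromosome position in these differences was not tested.

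CTNNB1 (chr3:41194741-41260096, plus strand) encodes beta-catenin, whose activity is set mainly by protein stability rather than by its transcript. Its level was 77.3, 75.8 and 78.6 TPM in U87, 70.4, 73.4 and 82.0 TPM in GSCs and 69.9, 74.9 and 73.7 TPM in Diff cells. The group means of 77.2 ± 1.37, 75.2 ± 6.04 and 72.8 ± 2.64 TPM had the narrowest range of the 10 genes. No comparison passed the test, with log2 differences of -0.040 (interval -0.18 to 0.10), -0.084 (-0.23 to 0.059) and -0.044 (-0.19 to 0.10) and adjusted p = 0.633, 0.331 and 0.635 by limma. Protein was not measured here.

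TCF7L2 (chr10:112950250-113167678, plus strand) is the TCF/LEF factor that carries beta-catenin to DNA in many tissues. U87 libraries had 18.3, 18.1 and 20.7 TPM, GSCs 9.55, 10.9 and 9.86 TPM, and Diff cells 14.6, 13.4 and 14.9 TPM. The groups did not overlap, with U87 highest and GSCs lowest. It fell by 0.85 in GSCs (SE 0.085, adjusted p = 4.81e-05, limma) and by 0.39 in Diff cells against U87 (adjusted p = 0.00635, limma), and it was higher by 0.46 in Diff cells than in GSCs (adjusted p = 0.0031, limma). TCF7, another TCF/LEF factor, rose against U87 where TCF7L2 fell, from 35.1, 36.1 and 31.1 TPM in U87 to 54.1, 59.0 and 57.1 TPM in GSCs and 98.1, 102 and 99.1 TPM in Diff cells. Its log2 fold change was 0.72 in GSCs (adjusted p = 2.63e-05, limma) and 1.52 in Diff cells against U87 (adjusted p = 5.65e-07, limma). LEF1 had means of 12.8, 17.8 and 21.5 TPM and rose in the same comparisons by 0.45 and 0.71 (adjusted p = 0.00121 and 0.000107, limma). TCF7L1 had means of 0.39, 0.45 and 0.39 TPM and was not tested. The share of TCF7L2 in the summed TPM of the 4 factors was 28.7 ± 2.96% in U87, 11.9 ± 0.490% in GSCs and 10.5 ± 0.644% in Diff cells, and the sum was 66.3, 85.1 and 136 TPM.

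AXIN2 (chr17:65528563-65561647, minus strand) encodes a scaffold of the destruction complex and is the most widely used transcriptional readout of beta-catenin. Its level was 2.96, 2.44 and 2.73 TPM in U87, 1.73, 1.79 and 1.99 TPM in GSCs and 2.46, 3.23 and 2.12 TPM in Diff cells. GSCs lay below all other libraries, and Diff cells and U87 overlapped. No comparison passed the test: the log2 difference was -0.39 in GSCs against U87 (interval -0.72 to -0.050, adjusted p = 0.0582, limma), -0.051 in Diff cells against U87 (-0.39 to 0.29, adjusted p = 0.816, limma) and 0.34 in Diff cells against GSCs (adjusted p = 0.115, limma). The difference between GSCs and U87 passed it without Diff library 2 (adjusted p = 0.0445), after quantile normalization (0.0494) and without a trend in the variance (0.0296). The value of AXIN2 is uncertain, because 25.2% of its exon bases lie in AC004805.1 on the same strand and 24.1% of its 50-base words are shared with that gene.

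**Figure D3:**
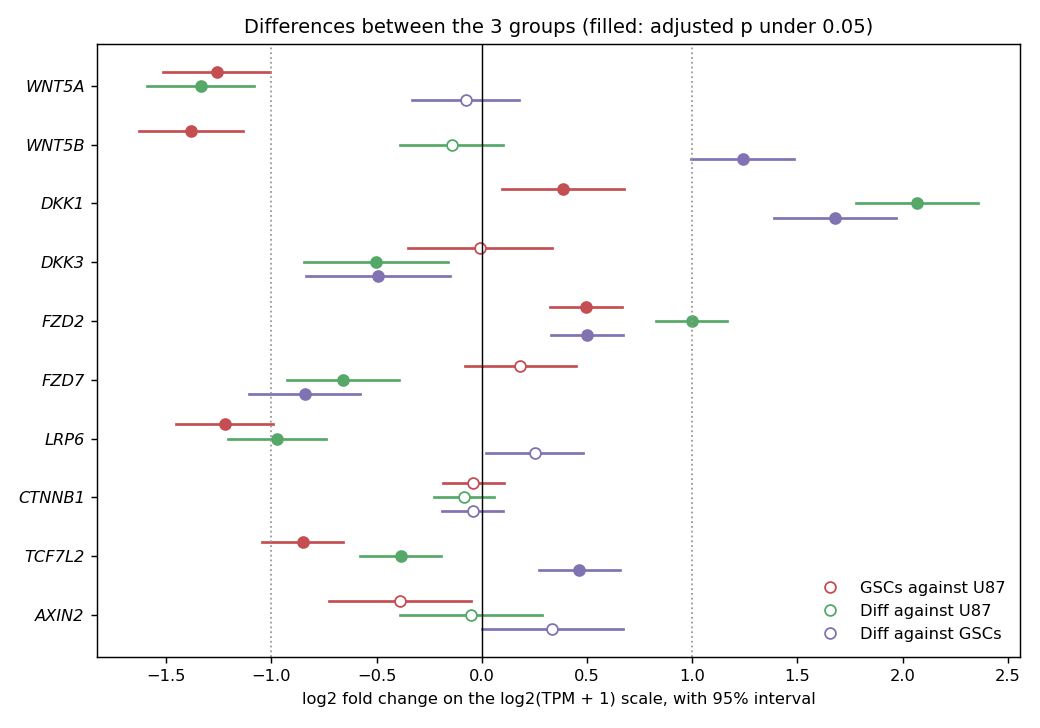
Log2 fold changes on the log2(TPM + 1) scale (horizontal axis) with 95% intervals from limma for the 10 genes in GSCs against U87, Diff cells against U87 and Diff cells against GSCs. Filled points had an adjusted p under 0.05, and dotted lines mark changes of -1 and 1. DKK1 reached 2.07, WNT5A lay at -1.26 and -1.34 against U87, and all 3 intervals of CTNNB1 included 0.

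The 10 genes were set beside 9 lists of WNT pathway genes, 115 genes in all including the members. Of these, 73 passed the filter, 42 did not, and 3 of the 42 were at 0 in all libraries. In GSCs against U87, 29 of the 73 rose and 20 fell (67.1%, beside 48.6% of all tested genes). In Diff cells against U87, 25 rose and 22 fell (64.4%, beside 39.4%). In Diff cells against GSCs, 15 rose and 17 fell (43.8%, beside 34.8%). Past both limits, 7 were higher and 8 lower in GSCs against U87, beside 9.52% and 7.53% of all tested genes. Set against U87, Diff cells had 10 higher and 4 lower (5.92% and 6.36%), and set against GSCs they had 4 higher and 1 lower (2.66% and 5.36%). As shares of the 73 genes, the genes past both limits were 20.5%, 19.2% and 6.85%, beside 17.1%, 12.3% and 8.01% of all tested genes.

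Both genes that process ligands fell against U87 in GSCs and in Diff cells, beside 23.3% and 20.5% of all tested genes. PORCN, the enzyme that attaches the lipid to WNT ligands, had 80.8, 77.5 and 78.5 TPM in U87, 27.0, 25.8 and 16.8 TPM in GSCs and 21.4, 20.0 and 21.3 TPM in Diff cells. It fell by 1.75 in GSCs (SE 0.15, adjusted p = 2.06e-05, limma) and by 1.87 in Diff cells (adjusted p = 2.01e-05, limma), and no library of either group came near U87. WLS, the carrier that brings WNT ligands to the cell surface, fell by 0.33 and 0.60 from a mean of 102 TPM in U87 (adjusted p = 0.00196 and 7.96e-05, limma).

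Of the 9 genes of the R-spondin arm, 4 were tested. The list holds R-spondins and their LGR receptors, which protect frizzled receptors from removal, and also RNF43 and ZNRF3, which remove them. In GSCs 3 rose and none fell against U87, beside 25.3% and 23.3% of all tested genes, and in Diff cells all 4 rose, beside 18.9%. RSPO3, a secreted R-spondin, had 1.00, 0.931 and 1.17 TPM in U87, 13.01, 12.1 and 16.1 TPM in GSCs and 19.0, 17.7 and 16.4 TPM in Diff cells, which gave log2 fold changes of 2.85 and 3.20 against U87 (adjusted p = 3.18e-07 and 2.78e-07, limma). LGR4, an R-spondin receptor, rose by 0.54 and 0.50. RNF43, which removes frizzled receptors and is a target of beta-catenin, was at 0.0715 to 0.137 TPM in U87, 7.32 to 8.36 TPM in GSCs and 3.17 to 3.95 TPM in Diff cells. Its values are uncertain, because 59.5% of its exon bases lie in SUPT4H1 and AC004687.2 on the same strand. RNF43 passed the filter of a mean over 1 TPM only through GSCs and Diff cells, where it was higher, and it is among the genes counted as risen.

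Among the 18 receptors, 13 were tested. Against U87, 5 rose and 3 fell in GSCs (61.5%, beside 48.6% of all tested genes), and 5 rose and 4 fell in Diff cells (69.2%, beside 39.4%). FZD3, a frizzled linked to planar polarity, had 2.81, 2.89 and 2.31 TPM in U87, 0.664, 0.617 and 0.712 TPM in GSCs and 0.320, 0.406 and 0.330 TPM in Diff cells, and fell by 1.14 and 1.44 (adjusted p = 0.000187 and 6.13e-05, limma). FZD3 passed the filter of a mean over 1 TPM only through U87, the group where it was highest, and it is among the receptors counted as fallen. The 24 genes next to FZD3 had median log2 fold changes of -0.75 and -0.86. PTK7, a co-receptor of the polarity arm, fell by 1.19 in GSCs (adjusted p = 0.000253, limma) and by 0.91 in Diff cells. ROR2, a receptor of WNT5A, had at most 0.0245 TPM in any library and was not tested. Other receptors of the list were present. ROR1 had means of 0.913, 0.405 and 0.679 TPM in U87, GSCs and Diff cells and was not tested. RYK had means of 22.6, 25.0 and 24.1 TPM and did not pass the test in any comparison.

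The 17 cytoplasmic transducers were all tested and none passed both limits in any comparison. Over all tested genes the shares past both limits were 17.1% (GSCs against U87), 12.3% (Diff cells against U87) and 8.01% (Diff cells against GSCs). In GSCs against U87, 6 rose and 5 fell (64.7%, beside 48.6% of all tested genes), among them DVL2 (log2 fold change 0.92, adjusted p = 1.9e-06, limma), DVL1 (-0.88, adjusted p = 0.000436, limma) and APC (-0.84, adjusted p = 6.95e-05, limma). In Diff cells against U87, 3 rose and 4 fell (41.2%), near the 39.4% of all tested genes. APC, a scaffold of the destruction complex, was higher by 0.99 in Diff cells than in GSCs (adjusted p = 6.77e-05, limma).

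Of 13 nuclear factors, 11 were tested. PYGO1, a partner of beta-catenin at its target genes, rose in GSCs by 1.25 (adjusted p = 6.75e-05, limma) and the TLE corepressors split, with TLE1 at 1.02 and TLE3 at -1.11 (adjusted p = 2.29e-05 and 1.67e-05, limma). BCL9L, which links beta-catenin to PYGO proteins, rose in Diff cells by 1.23 (adjusted p = 4.9e-05, limma), with 38.8% of its exon bases opposite other genes. The directional libraries would separate these strands, but the strand setting of the counting is not given in the sources used here. Of the 24 genes next to BCL9L, 22 were above 0 in Diff cells against U87, with a median of 0.50. Around TLE3, 17 of 24 were below 0 in GSCs against U87, with a median of -0.37. The part of chromosome position was not tested for these genes.

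Of 16 targets of beta-catenin and TCF, 10 were tested. In GSCs against U87, 6 rose and none fell, beside 25.3% and 23.3% of all tested genes. These 6 include RNF43, whose values are uncertain and which passed the filter only through GSCs and Diff cells, as described above. They also include DKK1, whose rise in GSCs did not pass the test under 7 of 18 alternatives. In Diff cells against U87, 7 rose and 2 fell, beside 18.9% and 20.5% of all tested genes. SP5, a target that represses other targets, had 1.38, 2.29 and 1.89 TPM in U87, 7.28, 9.08 and 5.22 TPM in GSCs and 9.02, 9.48 and 9.44 TPM in Diff cells, with log2 fold changes of 1.51 and 1.86 against U87 (adjusted p = 0.000194 and 7.22e-05, limma). MYC rose by 0.94 and 0.50 (adjusted p = 5.96e-05 and 0.00327, limma). CCND1, the cell cycle gene cyclin D1, fell in Diff cells against U87 by 0.67 (adjusted p = 3.58e-05, limma), and TNFRSF19 fell there by 1.07 (adjusted p = 5.58e-05, limma). AXIN2 was the remaining tested target in that comparison and did not pass. The list also holds DKK1, LEF1, TCF7, RNF43 and ZNRF3, which all rose in Diff cells, so it is not independent of the genes above, and many of its genes have other inputs than beta-catenin.

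Of the 16 genes of the planar polarity and calcium arm, 12 were tested. Against U87, 4 rose and 3 fell in GSCs (58.3%, beside 48.6% of all tested genes), and 3 rose and 1 fell in Diff cells (33.3%, beside 39.4%). NFATC2, a transcription factor activated by calcium, had 7.57, 7.50 and 7.66 TPM in U87, 0.245, 0.205 and 0.161 TPM in GSCs and 10.1, 10.1 and 10.6 TPM in Diff cells. It fell by 2.83 in GSCs against U87 (SE 0.10, adjusted p = 9.99e-08, limma) and was higher by 3.23 in Diff cells than in GSCs (adjusted p = 3.9e-07, limma). NFATC4, of the same family, rose in GSCs by 1.13 (adjusted p = 8.23e-06, limma). DAAM2, a formin of the polarity arm, rose in Diff cells by 1.30 from a mean under 0.5 TPM in U87, with 30.1% of its exon bases opposite other genes. DAAM2 passed the filter only through GSCs and Diff cells, the groups where it was higher. Of 13 secreted inhibitors only DKK1, DKK3 and SFRP4 were tested. SFRP4 had 0.614 to 0.863 TPM in U87, 0.410 to 0.621 TPM in GSCs and 2.16 to 3.97 TPM in Diff cells. It passed the filter of a mean over 1 TPM only through Diff cells, the group where it was higher. SFRP4 rose there by 1.23 against U87 (adjusted p = 0.00098, limma). WNT16, a ligand on chromosome 7, rose in Diff cells by 1.35 (adjusted p = 0.000333, limma), and its 24 neighbours were all above 0 with a median of 0.69. The mean of WNT16 in U87 was 0.808 TPM, so it passed the filter through the other groups.

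**Figure D4:**
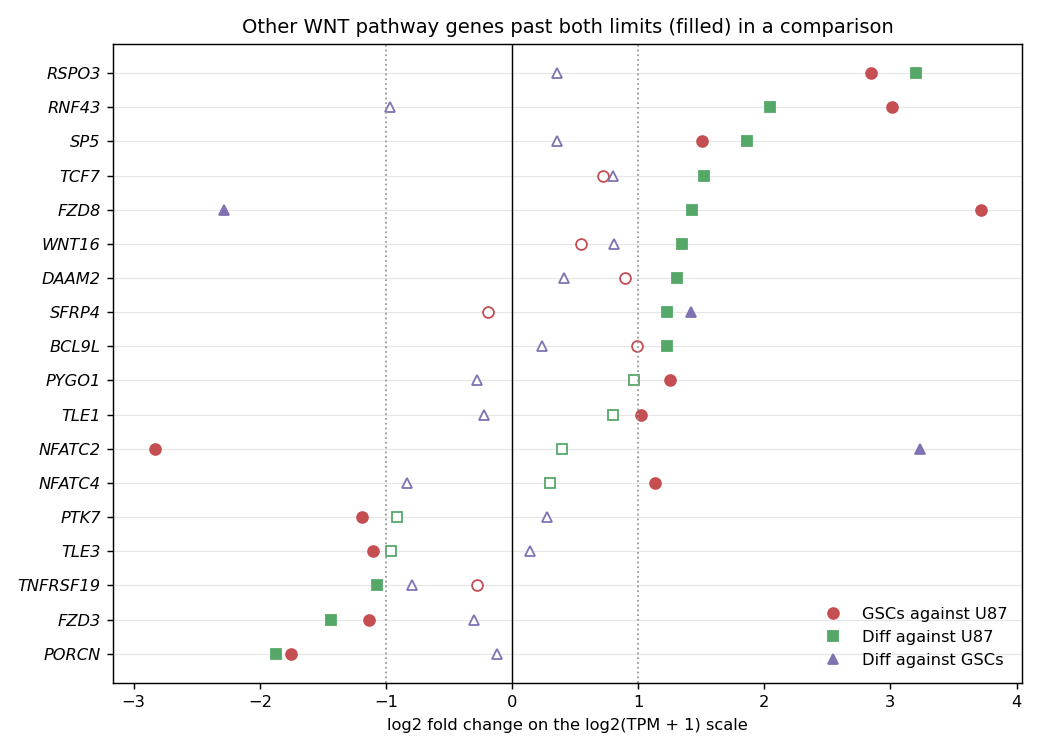
Log2 fold changes on the log2(TPM + 1) scale (horizontal axis) of the 18 other WNT pathway genes that passed both limits in at least 1 comparison. Filled symbols passed both limits, open symbols did not, and dotted lines mark -1 and 1. FZD8 (3.72) and RNF43 (3.01) were furthest right in GSCs against U87, and NFATC2 lay at -2.83 for the former and at 3.23 for Diff cells against GSCs.

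Markers of other cell types moved with the groups as well. The 4 endothelial markers summed to 8.75 to 10.004 TPM in U87, 32.8 to 37.9 TPM in GSCs and 12.4 to 16.2 TPM in Diff cells. Of these, 3 of 3 tested rose in GSCs against U87, beside 25.3% of all tested genes, while CDH5 was at most 0.465 TPM in any library. The tested marker VWF was under 1 TPM in every U87 library and passed the filter through the other groups. The 6 fibroblast or mesenchymal markers summed to 730 to 863 TPM in U87, 189 to 213 TPM in GSCs and 482 to 490 TPM in Diff cells. LUM was at 22.0 to 26.9 TPM in Diff cells and at most 1.80 TPM elsewhere, and THY1 at most 0.0758 TPM. The 4 tested were split in Diff cells against U87, where COL1A1 and PDGFRB fell and COL1A2 and LUM rose. COL1A1 had means of 497, 27.7 and 157 TPM in U87, GSCs and Diff cells. The 5 neuronal markers summed to 10.8 to 14.5, 13.5 to 14.0 and 27.1 to 28.1 TPM, with DCX at most 0.0228 TPM. MAP2 held most of this sum, with means of 7.95, 8.22 and 21.7 TPM in U87, GSCs and Diff cells. TUBB3 did not pass the test in Diff cells against U87 (adjusted p = 0.0622, limma). The ranges of RBFOX3 and SYP overlapped in every comparison. The 4 leukocyte markers summed to at most 3.32 TPM, the 4 epithelial markers to at most 6.90 TPM and the 4 astrocyte markers to at most 2.68 TPM in any library. Like COL1A1 and the mesenchymal sum, WNT5A and LRP6 were highest in U87, and WNT5B and TCF7L2 were lowest in GSCs. Like the endothelial sum, FZD8 was highest in GSCs, and like MAP2 and LUM, DKK1 was highest in Diff cells. Not all markers of the same lists shared this, since COL1A1 and PDGFRB were highest in U87 and RBFOX3 and SYP overlapped between groups. The part of such markers in the WNT values was not tested.

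DKK1 had the widest range of group means, and the 3 tested genes whose log2 values followed it most closely over the 9 libraries were ABLIM1 (Pearson r = 0.996), LRATD2 (0.993) and CDH23 (0.993). ABLIM1, an actin-binding protein, had 0.0591 to 0.0706 TPM in U87, 0.391 to 0.487 TPM in GSCs and 5.46 to 5.86 TPM in Diff cells. All 3 genes passed the filter of a mean over 1 TPM only through Diff cells, the group where they and DKK1 were highest, so the filter favours such a likeness. The 9 points fall into 3 groups, so r mainly describes the order and spacing of the group means, and 188 genes had r over 0.95 with DKK1.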

How the data were processed

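RNA-seq libraries of U87, GSCs and Diff cells were compared, 3 per group, grouped by the sample titles. The authors deposited 1 table of log2(TPM + 1) values for 60606 genes, and the back-transformed columns each summed to 1000000. The submitters' processing notes name FastQC 0.11.9, Trimmomatic 0.39, HISAT2 2.2.1, featureCounts 2.0.5, R 4.2.0 and GRCh38. The annotation and strand setting are not given in the sources used here. The labels describe removal of ribosomal RNA and a directional kit, whereas the methods describe oligo(dT) enrichment, which bears on the noncoding RNA in the total. TPM keeps no depth, so no counting interval was given and precision rests on the spread between 3 libraries.

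Genes with a mean over 1 TPM entered 1 limma model of the 3 groups (version 3.58.1 under R 4.3.3; lmFit and eBayes, trend on), after a check on simulated data. Adjustment was by Benjamini-Hochberg within each comparison. Shares were compared with exact permutation tests (scipy 1.17.1). Positions and neighbours came from GENCODE 29, promoters from RefSeq. The genes named were the 10 members, pathway genes past both limits in any comparison, genes that define a class, the 3 genes most like the member of widest range, and cell type markers. Other pathway genes (WLS, LGR4, DVL1, DVL2, APC, MYC, CCND1, ZNRF3, ROR1, ROR2, RYK) were named after their values were seen. The members and lists were chosen with earlier results of these data known. Alternatives covered pseudocount, filter, scaling, trend, samples in the fit, a replicate block and each library left out.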

Additional observations from a re-analysis of the deposited data

How the results depend on the processing

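For the 10 WNT genes in 3 comparisons, 561 alternative values were computed, of which 524 kept their direction and side of the threshold, 20 lost and 7 gained an adjusted p under 0.05 and 10 changed sign. Of the 30 results, 20 kept both under every alternative run. The sign changes were all of differences that did not pass the test: AXIN2 in Diff cells against U87 was 0.021 after quantile normalization and -0.17 to 0.047 with single libraries left out, the highest without Diff library 3. CTNNB1 in Diff cells against GSCs was 0.012 after median-ratio scaling, 0.019 without RN7SL1 and mitochondrial genes and -0.090 to 0.019 with single libraries left out, the highest without GSCs library 3, and in GSCs against U87 it was -0.10 to 0.0060, the highest without GSCs library 1. DKK3 in GSCs against U87 was -0.082 to 0.047 and above 0 without U87 library 3 (0.015), GSCs library 1 (0.0062) or GSCs library 2, and WNT5A in Diff cells against GSCs was -0.16 to 0.061, the highest without GSCs library 3. Members past both limits in Diff cells against U87 numbered 4 with a pseudocount of 0.1 or 0.5, where FZD2 and LRP6 were added, and 1 with a filter of a mean over 5 TPM, which removes DKK1, DKK3 and AXIN2. That filter left 1 member in Diff cells against GSCs. Pathway genes past both limits numbered 8 in Diff cells against GSCs with a pseudocount of 0.1, and with a mean over 5 TPM they numbered 8 in Diff cells against U87 but 3 in Diff cells against GSCs. Over all genes, 3908, 2812 and 1836 passed both limits (GSCs against U87, Diff cells against U87, Diff cells against GSCs), 2254, 1583 and 1038 with a mean over 5 TPM, where fewer genes were tested, and 11129, 9024 and 7982 by adjusted p alone. With each library left out in turn, these counts were 3797 to 3980, 2755 to 2811 and 1773 to 1907, those of members past both limits 3 to 3, 2 to 3 and 2 to 2, those of members past the test 5 to 7, 6 to 7 and 5 to 6, and those of pathway genes 14 to 18, 14 to 17 and 5 to 6. Replicate numbers did not pair the libraries, since deviations of same-numbered libraries correlated at -0.042 to 0.049. With the replicate block, 3917, 2810 and 1831 genes passed both limits, and DKK1 (GSCs against U87) and DKK3 (Diff against GSCs) had adjusted p = 0.059 and 0.0562 (limma). Depth could not be read from TPM, so no limit of detection was set for genes near 0.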
